A study of Mus musculus with 6 samples.

Results

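The 10 genes described here encode Eph receptors (Epha1, Epha4, Epha7, Ephb3 and Ephb4) and ephrins, their ligands (Efna1, Efna4, Efna5, Efnb1 and Efnb2). All probe sets that the platform annotation assigns to 1 of these gene symbols were taken, which gave 26 of 45037 probe sets, 14 for receptors and 12 for ligands. They were measured in epithelium (arrays A, B and C) and mesenchyme (arrays A, B and C) of the small intestine of mouse embryos, carried by C57BL/6 females, at E18.5 (the day of embryonic development). Opened intestines were kept for 9 hours at 4 °C in Cell Recovery Solution, the epithelium was shaken off, and the remaining gut wall, with its muscle, vessels, nerves and blood cells, was taken as mesenchyme. Each array carried RNA of 1 pool of 3 embryos, and 3 of 6 pools per tissue had been selected by RT-PCR for low carry-over from the other tissue. No genetic change or drug was named for either tissue. The question of the comparison was how gene expression differs between both compartments.

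Eph receptors are receptor tyrosine kinases that are activated by ephrins in the membrane of a touching cell, and the bound ephrin can signal back into the cell that carries it. Ephrin-A proteins hold to the membrane by a lipid anchor and bind mainly A-class receptors, whereas ephrin-B proteins span the membrane and bind mainly B-class receptors. Contact between them often makes cells retract, and in adult gut B-class receptors of crypt cells and ephrin-B ligands of villus cells are known to keep proliferating and differentiated cells apart. In blood vessels, ephrin-B2 is a marker of arteries and Ephb4 of veins.

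The sequences upstream of 3 members are shown because the results turn on them: Epha1 carried the 1 probe set called higher in the epithelium, and Ephb3 and Efnb2 are a receptor and a ligand for which every probe set was called higher in the mesenchyme. Each sequence is the 250 bases before the start site, 5′ to 3′ on the gene's strand, from RefSeq on GRCm38.p6. Capitals mark GC boxes (GGGCGG), E-boxes (CANNTG) and TATA boxes (TATAAA) found on either strand, and no matches overlapped.
Epha1, chr6:42373269-42373518, minus strand: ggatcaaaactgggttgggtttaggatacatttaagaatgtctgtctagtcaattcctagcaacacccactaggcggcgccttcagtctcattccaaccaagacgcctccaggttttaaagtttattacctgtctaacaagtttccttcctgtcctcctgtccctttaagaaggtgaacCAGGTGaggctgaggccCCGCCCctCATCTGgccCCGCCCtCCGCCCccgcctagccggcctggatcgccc
Ephb3, chr16:21204545-21204794, plus strand: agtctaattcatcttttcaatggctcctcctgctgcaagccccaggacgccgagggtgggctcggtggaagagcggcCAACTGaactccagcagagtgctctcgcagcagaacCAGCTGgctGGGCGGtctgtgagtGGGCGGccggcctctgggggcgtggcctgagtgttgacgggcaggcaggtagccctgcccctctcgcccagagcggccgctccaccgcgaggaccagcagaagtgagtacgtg
Efnb2, chr8:8661243-8661492, minus strand: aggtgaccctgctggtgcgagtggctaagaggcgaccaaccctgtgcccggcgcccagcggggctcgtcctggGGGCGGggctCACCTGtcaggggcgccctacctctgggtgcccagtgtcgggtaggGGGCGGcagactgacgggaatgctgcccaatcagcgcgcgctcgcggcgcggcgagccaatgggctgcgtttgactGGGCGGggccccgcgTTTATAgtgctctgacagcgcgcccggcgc

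The Epha1 sequence held 3 GC boxes and 2 E-boxes, that of Ephb3 2 GC boxes and 2 E-boxes, and that of Efnb2 3 GC boxes, 1 E-box and 1 TATA box. All 10 members matched the RefSeq promoter table, with 12 windows of this length. A GC box lay in 10 of the 12 windows and in 32.7% of 32851 windows of all genes. An E-box lay in 4 of the 12 (Epha1, Ephb3, Ephb4 and Efnb2) and in 66.2% of all. TGGGAA, the core of RBPJ motifs, lay in 4 of the 12 (windows of Epha4, Epha7 and Efnb1) and in 21.6% of all. The TATA box of Efnb2 was the single one among the 12, against 12.4% of all windows. CTTTGA, a core of TCF/LEF motifs, lay in 0 of the 12 and in 13.8% of all windows. These are matches of letters, and nothing was measured at these sites.

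Below, levels are log2 expression values, a difference is the epithelial minus the mesenchymal mean ± SE (the standard error that limma gives with 3 arrays for either tissue). A probe set is called at an adjusted p under 0.05 with a difference of at least 1 in either direction. Of the 26 probe sets, 1 was called with the epithelium higher, 10 were called with the mesenchyme higher, and 15 were not called. The 11 calls are 42.3% of the members' probe sets, beside 21.5% called over the whole array. Of the 11, 4 were probe sets of the single gene Efnb2. Among the probe sets of the other Eph receptors and ephrins, 4 of 19 were called. The members were chosen with earlier results of these data known, so their shares describe them and do not test the family. For single directions, the members' shares were 3.85% in the epithelium and 38.5% in the mesenchyme, beside 5.98% and 15.5% over the whole array in the same order. The median difference of the 26 was -0.77, beside -0.17 over all probe sets. The called probe sets belonged to Epha1 in the epithelium and to Epha4, Epha7, Ephb3, Ephb4, Efna5 and Efnb2 in the mesenchyme. A gene with several probe sets has more chances of such a call. Efna1, Efna4 and Efnb1 had no called probe set. By its brightest probe set alone, 6 of the 10 genes were called (1 in the epithelium and 5 in the mesenchyme), beside 24.1% of 18161 genes, 8.19% in the epithelium and 15.9% in the mesenchyme. The brightest probe set of Epha4 was not called.

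Arrays of both tissues did not overlap for 17 of the 26 probe sets (41.7% over the whole array). In 15 of them the mesenchyme lay above (29.3% over the whole array), and in 2 the epithelium lay above. By class, 4 of 12 probe sets of A-class receptors, both of B-class receptors, 1 of 5 of ephrin-A ligands and 4 of 7 of ephrin-B ligands were called, beside 21.5% over the whole array. All 4 calls of ephrin-B ligands were on Efnb2 and 0 on Efnb1. Each class held only 2 or 3 genes, so these counts describe single genes rather than a class. Epithelium B was the highest epithelial array, or tied for it, in 23 of the 26 probe sets and epithelium A the lowest in 21. The median over all probe sets had the same order, with 8.1 in epithelium A, 8.6 in B and 8.3 in C, against 8.7 in mesenchyme A, 8.5 in B and 8.7 in C. With equal array medians, epithelium B was the highest for 10 of the 26 and epithelium A for 12.

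**Figure D1:**
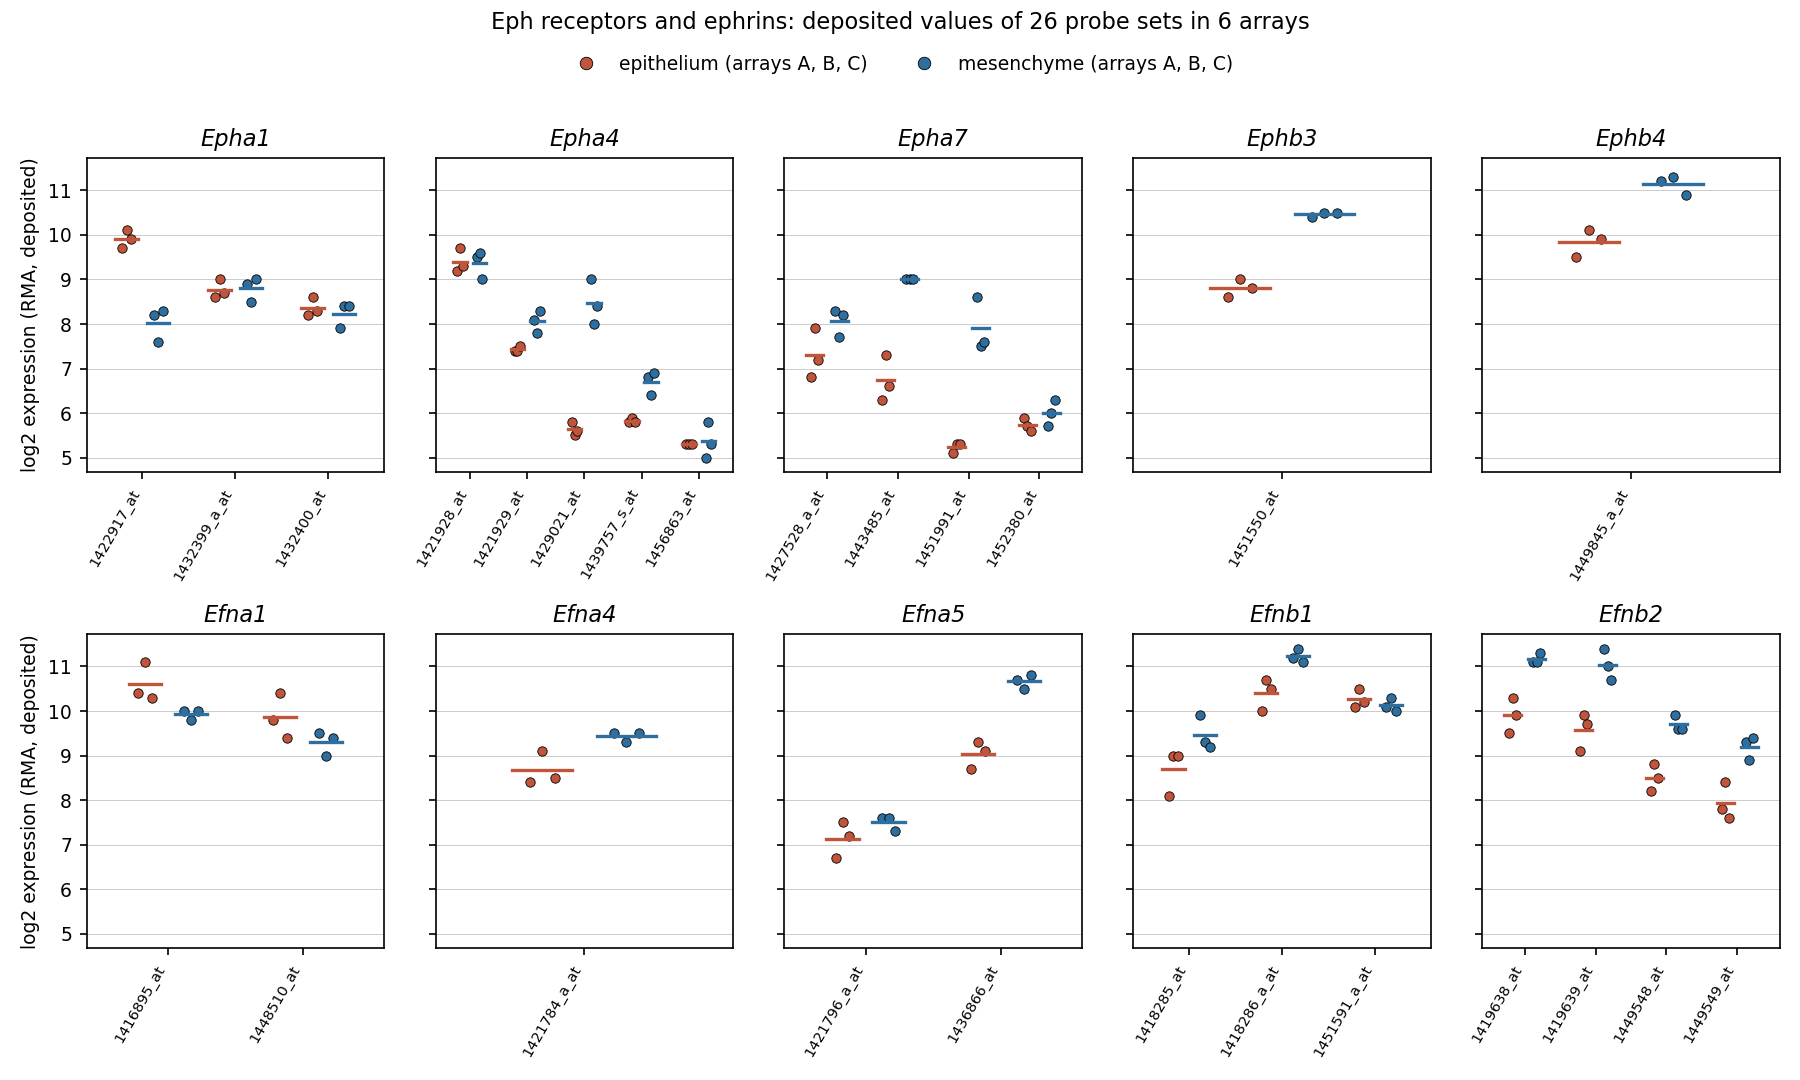
Deposited log2 values (vertical axis) of the 26 probe sets (horizontal axis, 1 panel per gene), with 1 point per array, a bar at the mean of 3 arrays, and epithelium left of mesenchyme. The mesenchymal points lie above the epithelial ones in all 4 probe sets of Efnb2, while among the probe sets of Epha1, Epha4, Epha7 and Efna5 some separate the tissues and others do not.

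The tissues were as labelled by their markers. All 12 pan-epithelial genes were called higher in the epithelium (Cdh1 5.63 ± 0.23 and Vil1 4.70 ± 0.23), and all 8 smooth muscle genes (Myl9 -7.53 ± 0.24 and Actg2 -7.23 ± 0.23) and all 7 fibroblast genes (Col1a1 -7.20 ± 0.23 and Col3a1 -7.17 ± 0.23) were called higher in the mesenchyme. The correlation of arrays was 0.978 to 0.984 within a tissue and 0.773 to 0.813 between tissues. Scaling the arrays in other ways moved the median difference of all probe sets by 0.19 (cyclic loess), 0.26 (quantile normalization), 0.30 (equal medians), 0.32 (centring on ribosomal protein genes) and -0.26 (centring on spike-in controls). The pools of a tissue are separate samples. The p-values rest on the spread between pools selected by RT-PCR, drawn strongly towards a value shared over all probe sets or genes.

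Epha1, an A-class receptor known mainly from epithelia, was the member with a call in the epithelium, by 1 of 3 probe sets. Probe set 1422917_at read 9.7, 10.1 and 9.9 in epithelium A, B and C, against 8.2, 7.6 and 8.3 in mesenchyme A, B and C. All epithelial arrays lay above all mesenchymal ones by at least 1.4, and the difference was 1.87 ± 0.24 (adjusted p = 3.23e-08, limma). The other probe sets of Epha1 gave no such separation. Probe set 1432399_a_at averaged 8.77 ± 0.21 in the epithelium and 8.80 ± 0.26 in the mesenchyme (SD, n = 3 each), and 1432400_at averaged 8.37 ± 0.21 in the epithelium and 8.23 ± 0.29 in the mesenchyme. The arrays of both overlapped, with differences of -0.03 ± 0.23 and 0.13 ± 0.23. The mean of the 3 probe sets differed by 0.66, short of a call.

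Epha4, a receptor that binds ephrins of both classes, was called higher in the mesenchyme by 1 of 5 probe sets. Probe set 1429021_at read 5.8, 5.5 and 5.6 in epithelium A, B and C, against 9.0, 8.0 and 8.4 in mesenchyme A, B and C. The lowest mesenchymal array lay 2.2 above the highest epithelial one, and the difference was -2.83 ± 0.24 (adjusted p = 3.08e-12, limma). Its epithelial mean of 5.63 lay below the mean of 27 control probe sets for bacterial transcripts on every array (5.87 to 6.25), near the lower end of the signal. Probe set 1439757_s_at (-0.87 ± 0.23, adjusted p = 0.00239, limma) and 1421929_at (-0.63 ± 0.23, adjusted p = 0.0262, limma) also had the mesenchymal arrays above without overlap, with differences under 1. Without mesenchyme B, 1439757_s_at differed by -1.02 and was called. This probe set was dim, with an epithelial mean of 5.83, below the bacterial controls, and a mesenchymal mean of 6.70.

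The brightest probe set of Epha4, 1421928_at, read 9.2, 9.7 and 9.3 in epithelium A, B and C, against 9.5, 9.6 and 9.0 in mesenchyme A, B and C. These arrays overlapped, and the difference was 0.03 ± 0.24. The remaining probe set, 1456863_at, averaged 5.30 ± 0.00 in the epithelium and 5.37 ± 0.40 in the mesenchyme, below the bacterial controls in both tissues. As the mean of its 5 probe sets Epha4 differed by -0.87, which was not called.

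Epha7, an A-class receptor known from patterning of the nervous system, was called higher in the mesenchyme by 2 of 4 probe sets. Probe set 1443485_at read 6.3, 7.3 and 6.6 in epithelium A, B and C, against 9.0, 9.0 and 9.0 in mesenchyme A, B and C. Probe set 1451991_at read 5.1, 5.3 and 5.3 in epithelium A, B and C, against 8.6, 7.5 and 7.6 in mesenchyme A, B and C. In both, the mesenchyme lay above without overlap, by at least 1.7 and 2.2, and mesenchyme A stood above B and C only in 1451991_at. The difference was -2.27 ± 0.24 for 1443485_at (adjusted p = 7.32e-10, limma) and -2.67 ± 0.25 for 1451991_at (adjusted p = 3.36e-11, limma), where the epithelial mean of 5.23 again lay below the bacterial controls. Probe set 1427528_a_at had overlapping arrays and a difference of -0.77 ± 0.26 (adjusted p = 0.0157, limma). Without epithelium B this difference was -1.07 and was called. Probe set 1452380_at averaged 5.73 ± 0.15 in the epithelium and 6.00 ± 0.30 in the mesenchyme, both within or below the range of the bacterial controls.

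Ephb3, known in adult gut as a Wnt-induced receptor of crypt cells, was called higher in the mesenchyme by its single probe set. Probe set 1451550_at read 8.6, 9.0 and 8.8 in epithelium A, B and C, against 10.4, 10.5 and 10.5 in mesenchyme A, B and C. The 3 mesenchymal arrays lay within 0.1 of each other and at least 1.4 above the epithelial ones. The difference was -1.67 ± 0.23 (adjusted p = 1.25e-07, limma), which puts the epithelial value at 31.5% of the mesenchymal one.

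Ephb4, the receptor of veins that binds ephrin-B2, was likewise called higher in the mesenchyme by its single probe set. Probe set 1449845_a_at read 9.5, 10.1 and 9.9 in epithelium A, B and C, against 11.2, 11.3 and 10.9 in mesenchyme A, B and C. The arrays did not overlap, with a gap of 0.8, and the difference was -1.30 ± 0.23 (adjusted p = 1.96e-05, limma), an epithelial value of 40.6% of the mesenchymal one. With centring on ribosomal protein genes the difference was -0.98 and the call ended.

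Efna1, an ephrin-A ligand that binds several A-class receptors, had higher epithelial means in both probe sets but no call. Probe set 1416895_at read 10.4, 11.1 and 10.3 in epithelium A, B and C, against 10.0, 9.8 and 10.0 in mesenchyme A, B and C. Epithelium B stood 0.7 above the next array, and the lowest epithelial array lay 0.3 above the highest mesenchymal one. The difference was 0.67 ± 0.24 (adjusted p = 0.0255, limma). For 1448510_at, which averaged 9.87 ± 0.50 in the epithelium and 9.30 ± 0.26 in the mesenchyme (SD, n = 3 each), the arrays overlapped and the difference was 0.57 ± 0.25 (adjusted p = 0.0714, limma).

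Efna4, another lipid-anchored ligand, read 8.4, 9.1 and 8.5 in epithelium A, B and C, against 9.5, 9.3 and 9.5 in mesenchyme A, B and C with its single probe set, 1421784_a_at. The mesenchymal arrays lay above, by as little as 0.2 over epithelium B, and the difference of -0.77 ± 0.24 (adjusted p = 0.00889, limma) was under 1. Efna1 and Efna4 lie close together on mouse chromosome 3 with 1 protein-coding gene between them in RefSeq (GRCm38.p6), the ephrin gene Efna3, and their differences had opposite signs.

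Efna5, an ephrin-A ligand known as a guidance cue of axons, was called higher in the mesenchyme by 1 of 2 probe sets. Probe set 1436866_at read 8.7, 9.3 and 9.1 in epithelium A, B and C, against 10.7, 10.5 and 10.8 in mesenchyme A, B and C. The groups lay 1.2 apart, and the difference was -1.63 ± 0.23 (adjusted p = 3.14e-07, limma). Probe set 1421796_a_at averaged 7.13 ± 0.40 in the epithelium and 7.50 ± 0.17 in the mesenchyme (SD, n = 3 each), its arrays overlapped, and the difference was -0.37 ± 0.24 (adjusted p = 0.246, limma). The mean of both probe sets differed by -1.0, at the threshold of a call.

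Efnb1, a transmembrane ligand of B-class receptors made by villus cells in adult gut, had no call in 3 probe sets. Probe set 1418286_a_at read 10.0, 10.7 and 10.5 in epithelium A, B and C, against 11.2, 11.4 and 11.1 in mesenchyme A, B and C. The mesenchyme lay above without overlap, and the difference of -0.83 ± 0.24 (adjusted p = 0.00442, limma) was under 1. Probe set 1418285_at read 8.1, 9.0 and 9.0 in epithelium A, B and C, against 9.9, 9.3 and 9.2 in mesenchyme A, B and C. Here epithelium A was 0.9 below the other epithelial arrays, the groups were 0.2 apart, and the difference was -0.77 ± 0.26 (adjusted p = 0.0157, limma). Probe set 1451591_a_at, by contrast, had overlapping arrays and a difference of 0.13 ± 0.23.

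Efnb2, the transmembrane ligand of arteries and a partner of Ephb4, was the member with the most calls, higher in the mesenchyme in 4 of 4 probe sets. Probe set 1419638_at read 9.5, 10.3 and 9.9 in epithelium A, B and C, against 11.1, 11.1 and 11.3 in mesenchyme A, B and C. Probe set 1419639_at read 9.1, 9.9 and 9.7 in epithelium A, B and C, against 11.4, 11.0 and 10.7 in mesenchyme A, B and C. Mesenchyme A was the highest array in 1419639_at but not in 1419638_at. Probe set 1449548_at read 8.2, 8.8 and 8.5 in epithelium A, B and C, against 9.9, 9.6 and 9.6 in mesenchyme A, B and C. Probe set 1449549_at read 7.8, 8.4 and 7.6 in epithelium A, B and C, against 9.3, 8.9 and 9.4 in mesenchyme A, B and C. In none of the 4 did the tissues overlap, with gaps of 0.5 to 0.8, and epithelium B was the highest epithelial array in each. The differences were -1.27 ± 0.24, -1.47 ± 0.25, -1.20 ± 0.23 and -1.27 ± 0.24 in that order, with adjusted p from 6.45e-06 to 5.96e-05 (limma). On the linear scale the epithelial values were 36.2% to 43.5% of the mesenchymal ones. Under cyclic loess, quantile normalization, equal medians or ribosomal centring, 1419639_at kept its call (-1.15 to -1.26), while the call of each of the other 3 probe sets ended under at least 1 of these scalings, with differences between -0.87 and -0.97.

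**Figure D2:**
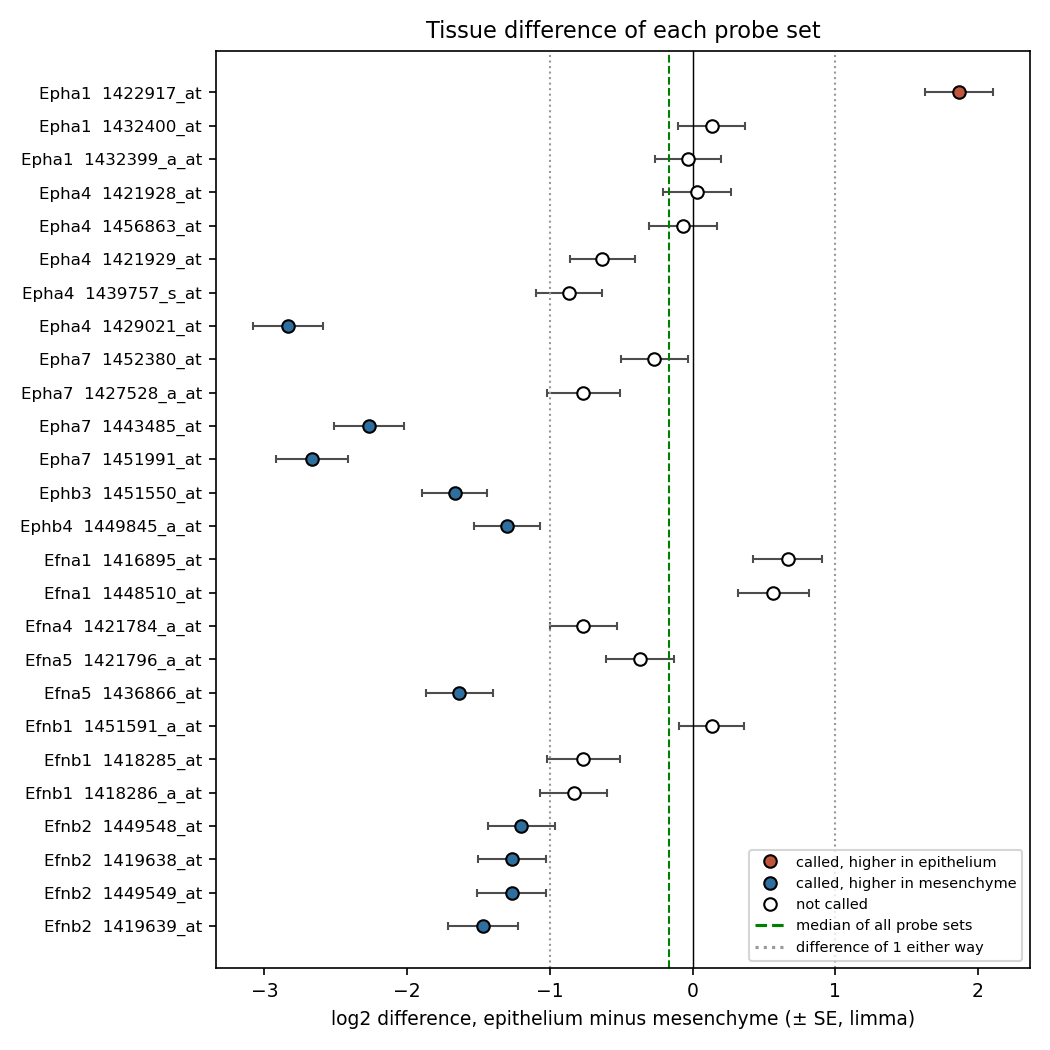
Difference of each probe set, epithelium minus mesenchyme (horizontal axis, log2 scale, bars ± SE from limma), grouped by gene; filled points are called and open points are not. The 4 points of Efnb2 lie between -1.47 and -1.20, whereas those of Epha4 run from -2.83 to 0.03.

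Probe sets of a gene thus gave unlike answers for part of the family. Of the 7 members with several probe sets, 4 (Epha1, Epha4, Epha7 and Efna5) had both called and uncalled ones, beside 30.5% of 9020 genes with several probe sets. The range of differences was 2.87 for Epha4, and 91.6% of the 467 genes with 5 probe sets had a smaller range. It was set at its lower end by 1429021_at, whose epithelial mean lay below the bacterial controls, so that its size is approximate. The range was 2.40 for Epha7, above 89.0% of 1093 genes with 4 probe sets, and its ends were 1451991_at, below the controls in the epithelium, and 1452380_at, no higher than the controls in either tissue. In the mesenchyme 1451991_at averaged 7.9, above the controls, so its direction does not rest on the floor. The size of the Epha7 range and its rank are approximate. The range was 1.90 for Epha1, above 87.6% of 2370 genes with 3. It was 1.27 for Efna5, above 86.1% of 4696 genes with 2. Efnb2 lay at the other end, with a range of 0.27 that was above 3.48% of genes with 4 probe sets. Efnb1 (0.97) was above 62.6% and Efna1 (0.10) above 10.4% of genes with their number of probe sets. The positions of the probes within the transcripts were not used here, and whether the unlike probe sets read different transcripts was not tested.

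**Figure D3:**
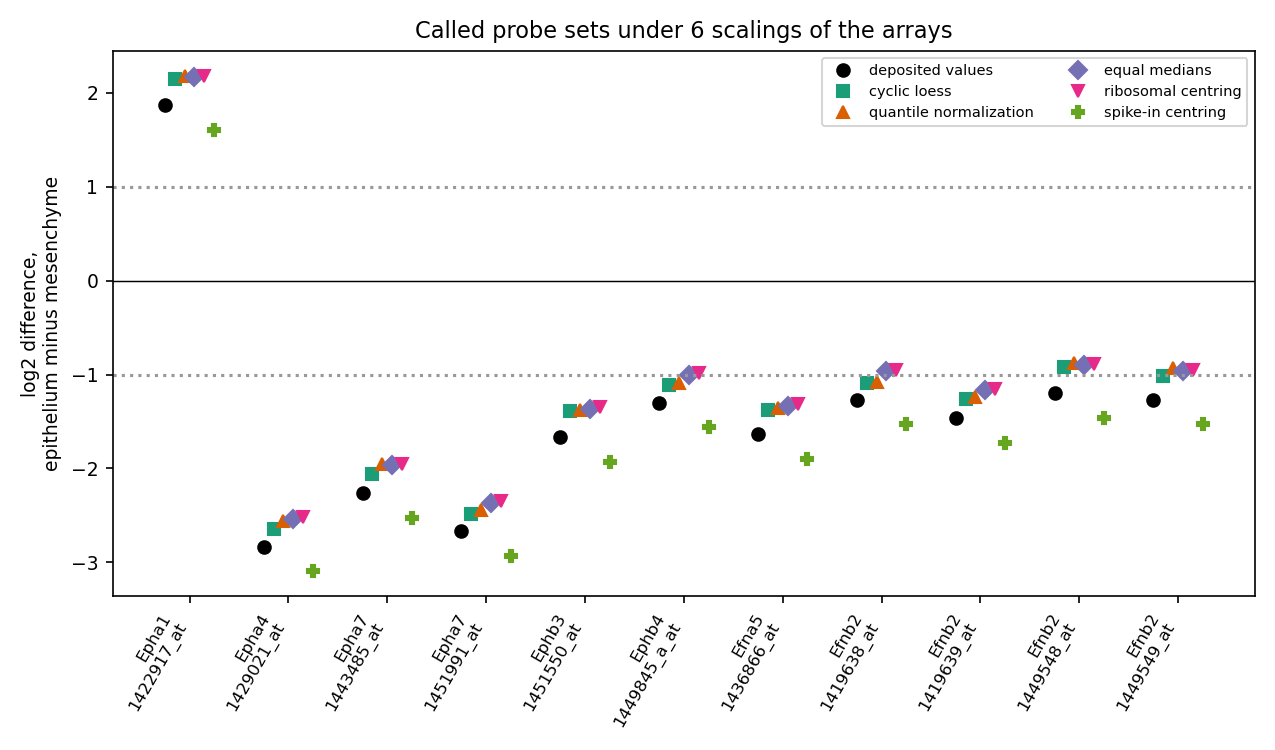
Differences of the 11 called probe sets, epithelium minus mesenchyme (vertical axis, log2 scale), in the deposited values and under 5 other scalings of the arrays (symbols); dotted lines mark differences of 1. No point changes sign, and the points that enter the range between the dotted lines belong to Efnb2 and, with ribosomal centring, Ephb4.

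The other Eph receptors and ephrins were 12 genes, of which 11 had a probe set. The B-class receptor Ephb2 had none and was not assessed. Here and below, a probe set with several symbols was counted for no gene. By the brightest probe set of each, 2 of the 11 were called, both with the mesenchyme higher, and 9 were not. This is near the share over all genes (24.1% called, 15.9% in the mesenchyme). Their median difference was -0.30, beside -0.17 over all genes. Ephb1, a B-class receptor, read 8.6, 8.6 and 8.0 in epithelium A, B and C, against 9.8, 9.6 and 9.5 in mesenchyme A, B and C (1455188_at), with a difference of -1.23 ± 0.23 (adjusted p = 4.5e-05, limma). Efna2, an ephrin-A ligand, lay at the threshold with -1.0 ± 0.23 (1444606_at, adjusted p = 0.000464, limma), while its other probe set gave 0.33 ± 0.23. Both calls ended under 4 of 5 other scalings, with -0.90 to -0.95 for Ephb1 and -0.67 to -0.72 for Efna2, and that of Efna2 also without epithelium A (-0.97) or C (-0.92) or without mesenchyme A or B (-0.98 each).

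Epha3, an A-class receptor, had the widest gap in the family in its probe set 1455426_at, which read 5.5, 5.3 and 5.6 in epithelium A, B and C, against 9.5, 8.8 and 8.9 in mesenchyme A, B and C. The mesenchyme lay at least 3.2 above, and the difference was -3.60 ± 0.24 (adjusted p = 1.74e-15, limma). A second probe set, 1425575_at, gave -3.43 ± 0.25 (adjusted p = 2.69e-14, limma). The brightest, 1425574_at, gave -0.67 ± 0.26 with overlapping arrays and no call, and 1426057_a_at gave -0.43 ± 0.23. The epithelial values of both called probe sets (5.0 to 5.6) lay below the bacterial controls, as did the epithelial means of 1429021_at for Epha4 and 1451991_at for Epha7. Without epithelium B, the brightest probe set of Epha3 was called as well.

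No probe set of the remaining 8 genes was called. Efna3, the ephrin gene between Efna1 and Efna4, gave -0.90 ± 0.23 with 1455344_at (adjusted p = 0.00162, limma) and 0.07 ± 0.24 with 1431170_at. Efnb3, a transmembrane ligand, gave -0.77 ± 0.22 (adjusted p = 0.00598, limma). Epha2 (0.03), Epha6 (-0.30), Epha8 (-0.40), Epha10 (0.23), Ephb6 (0.30) and the 4 probe sets of Epha5 (-0.60 to -0.03) had smaller differences.

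Genes known to act with Eph receptors and ephrins in signalling were mostly not called. Of 40 such partners, 38 had a probe set: 3 were called with the epithelium higher, 8 with the mesenchyme higher and 27 not. Over all genes 8.19% were called in the epithelium and 15.9% in the mesenchyme, so these counts lie near the background. The median difference was -0.37, beside -0.17 over all genes. Arhgef16, an exchange factor of the ephexin family, averaged 10.97 ± 0.31 in the epithelium and 8.27 ± 0.15 in the mesenchyme (SD, n = 3 each), a difference of 2.70 ± 0.23 (adjusted p = 1.05e-24, limma). Ngef, or ephexin-1, which binds Epha4, averaged 9.80 ± 0.36 in the epithelium and 8.07 ± 0.23 in the mesenchyme, a difference of 1.73 ± 0.23 (adjusted p = 6.29e-12, limma). Chn2, which encodes the Rac inhibitor beta-chimaerin, differed by 1.53 ± 0.23 (adjusted p = 1.75e-09, limma).

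In the mesenchyme, Ptpn13, a phosphatase that acts on ephrin-B, averaged 6.17 ± 0.42 in the epithelium and 9.07 ± 0.31 in the mesenchyme (SD, n = 3 each), a difference of -2.90 ± 0.23 (adjusted p = 2.79e-27, limma). Its epithelial mean lay within the range of the bacterial controls (5.87 to 6.25), so the size of this difference is approximate. Tiam1, a Rac exchange factor, differed by -2.47 ± 0.23, and the Src family kinase Fyn by -2.27 ± 0.23. Chn1, which encodes alpha-chimaerin, a Rac inhibitor required downstream of Epha4 in axon guidance, differed by -2.07 ± 0.23, opposite in sign to Chn2. The other 4 called partners were Abl1, Rasa1, Cbl and Adam10, with differences of -1.37 to -1.10. With equal medians or ribosomal centring the calls of Rasa1 (-0.97 and -0.95), Cbl and Adam10 (-0.80 and -0.78 each) ended. The call of Cbl also ended with quantile normalization (-0.81), cyclic loess (-0.84) and without epithelium A (-0.92), and that of Adam10 without epithelium A (-0.92) or mesenchyme A (-0.98). With the mean of each gene's probe sets in place of the brightest, Ptpn13 differed by -1.38 and Chn1 by -1.08, and the calls of Tiam1 (-0.89), Adam10 (-0.87), Cbl (-0.38) and Abl1 (-0.20) ended.

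**Figure D4:**
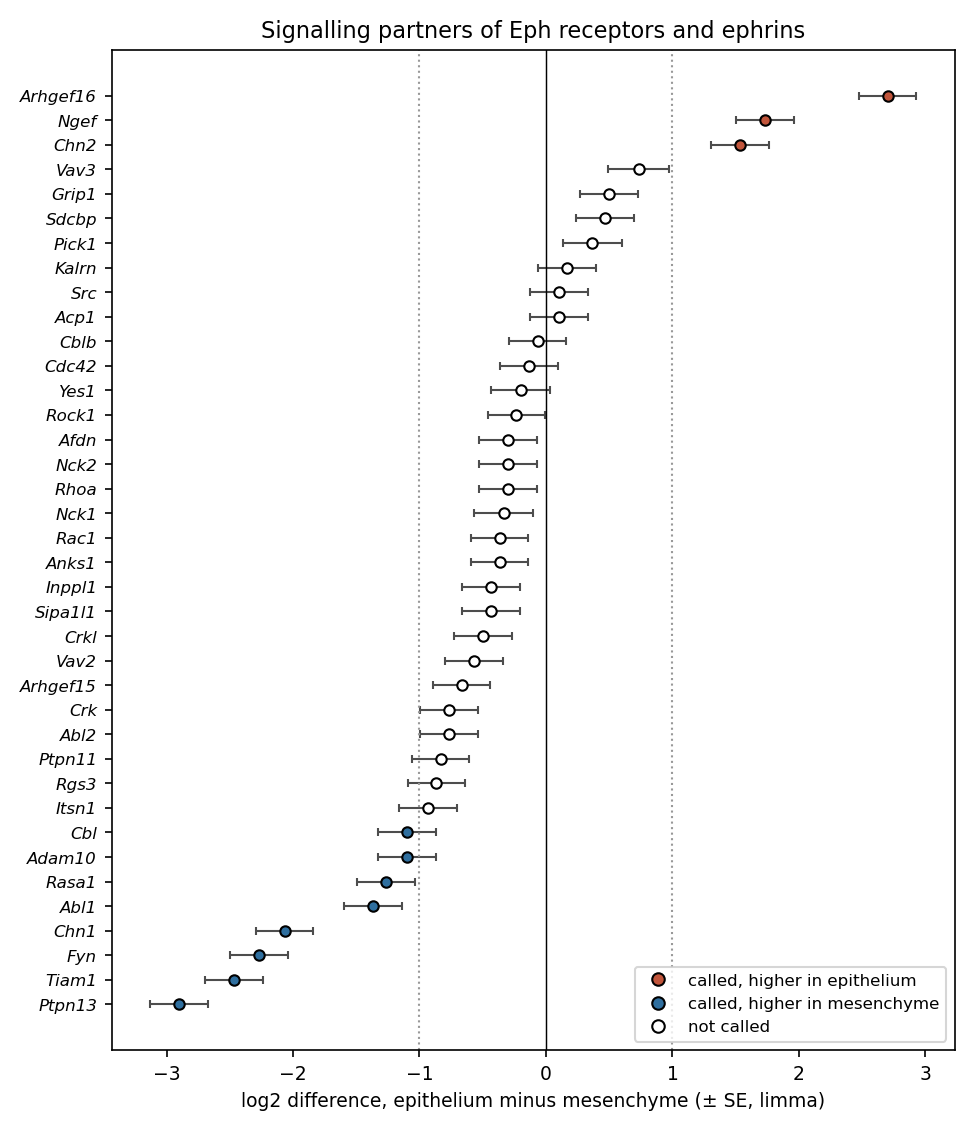
Difference of each of the 38 measured signalling partners, epithelium minus mesenchyme (horizontal axis, log2 scale, bars ± SE from limma), by the brightest probe set of each gene; filled points are called. Arhgef16, Ngef and Chn2 lie at the epithelial end, and Ptpn13, Tiam1, Fyn and Chn1 at the mesenchymal end.

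As Ephb3 is a known Wnt-induced gene of crypt cells, other Wnt target genes were set beside it. Of 14 genes, 13 had a probe set: 1 was called with the epithelium higher, 3 with the mesenchyme higher and 9 not, near the shares over all genes (8.19% in the epithelium and 15.9% in the mesenchyme). The median difference was 0.07, beside -0.17 over all genes. Rnf43, a ubiquitin ligase that removes Wnt receptors, differed by 1.47 ± 0.23 (adjusted p = 5.17e-09, limma), while the hyaluronan receptor gene Cd44 (-3.47 ± 0.23) and the cyclin gene Ccnd1 (-2.30 ± 0.23) were higher in the mesenchyme. Znrf3, a relative of Rnf43, differed by -1.17 ± 0.23 with overlapping arrays. Its call ended under 4 of 5 other scalings (-0.80 to -0.95), without epithelium C (-0.97) and without mesenchyme A (-0.95). The stem cell marker Lgr5 (0.83 ± 0.23) and Axin2 (0.53 ± 0.23) were not called.

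Most markers of vessels, nerves and blood cells were called higher in the mesenchyme, as were most called members, and in bulk tissue fewer cells of a type cannot be told apart from less RNA per cell. Of 10 pan-endothelial genes, 9 were called higher in the mesenchyme (Plvap -5.60 ± 0.23 and Cd93 -4.73 ± 0.23), and their mean over the list was 7.60 to 8.04 in epithelial arrays and 11.2 to 11.4 in mesenchymal arrays. Of 9 genes listed as arterial, 7 were called (Nrp1 -4.23 ± 0.23, Cxcr4 -3.83 ± 0.23), with list means of 7.39 to 7.69 in the epithelium and 9.53 to 9.77 in the mesenchyme. Dll4 (-0.77) and Gja5 (-0.20) of this list were not called. All 5 genes listed as venous were called (Aplnr -6.33 ± 0.23, Vwf -4.07 ± 0.23), with list means of 7.84 to 8.04 in the epithelium and 11.1 to 11.4 in the mesenchyme. Whether the genes of both lists are limited to arteries or veins in this tissue was not tested. Of 8 measured genes of enteric neurons and glia 5 were called (Ednrb -6.70 ± 0.23, Uchl1 -5.17 ± 0.23), and of 7 haematopoietic genes 5 (C1qb -4.80 ± 0.23, Ptprc -4.40 ± 0.23), all in the mesenchyme. The uncalled ones were Sox10 (-0.83), Ret (-0.40) and S100b (0.17) of the former list, and Hba-a1 (-0.43) and Csf1r (0.40) of the latter. For Csf1r all epithelial arrays lay above all mesenchymal ones.

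The epithelial value, as a share of the mesenchymal one, had a median of 1.84% for smooth muscle, 0.800% for fibroblast, 7.78% for pan-endothelial, 28.7% for arterial, 12.8% for venous, 21.8% for enteric neuron and glia and 8.64% for haematopoietic genes. Efnb2 (36.2% to 43.5%) lay above the arterial median of 28.7% and within the range of the arterial genes (5.32% to 87.1%). That range is wide, and its upper end was Gja5, which was not called and had overlapping arrays. Ephb4, at 40.6%, lay just above the range of the venous genes (1.24% to 38.8%). Ephb3 (31.5%) and Efna5 (32.2% by 1436866_at) lay above the ranges of the smooth muscle (0.540% to 26.2%) and fibroblast genes (0.680% to 5.57%). Both lay within those of the pan-endothelial (2.06% to 69.1%), arterial, venous, enteric neuron and glia (0.962% to 112%) and haematopoietic genes (3.59% to 132%). The upper ends of the pan-endothelial (Erg), enteric neuron and glia (S100b) and haematopoietic (Csf1r) ranges were genes that were not called. The called probe sets of Epha4 (14%) and Epha7 (20.8% and 15.7%) lay within the ranges of all these lists except that of the fibroblast genes. The 14% of Epha4 and the 15.7% of Epha7 are approximate, as the epithelial means of these probe sets lay below the bacterial controls. The shares of markers with epithelial means within or below the range of these controls, such as Cxcr4 (5.97) and Uchl1 (6.13), are approximate too. These overlapping ranges do not set 1 cell type apart. The part of these cell types in the values of the Eph and ephrin genes was not tested.

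**Figure D5:**
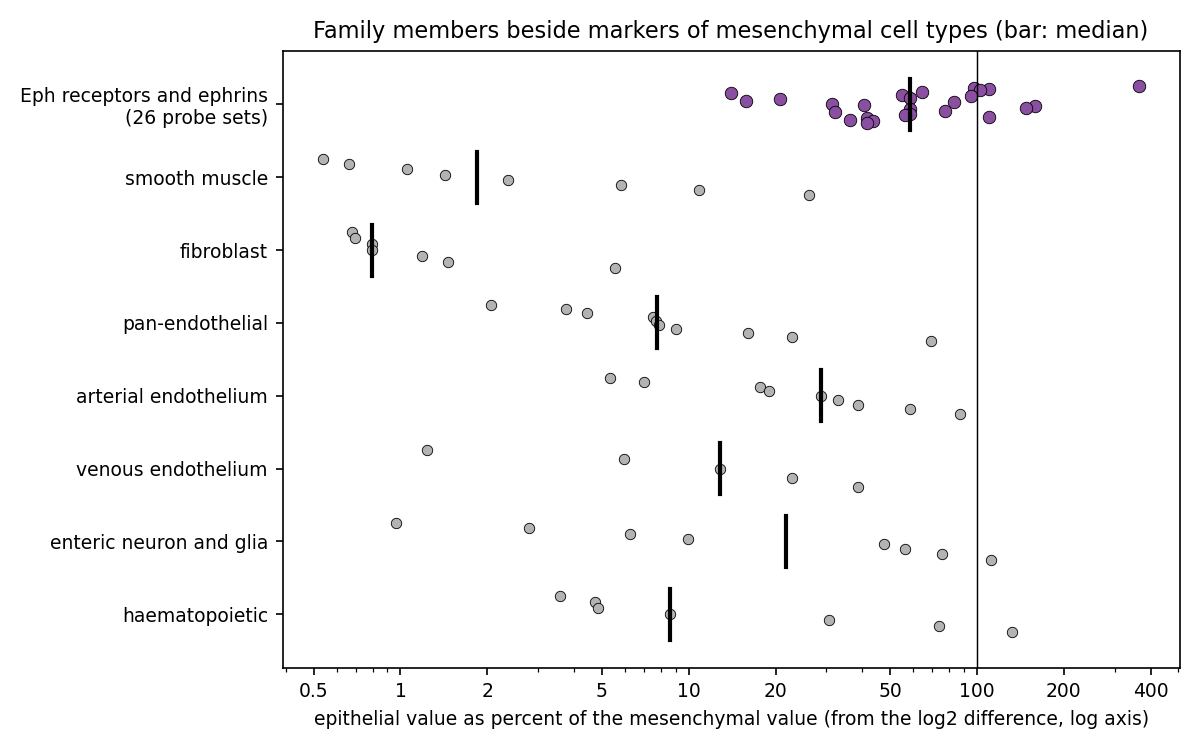
Epithelial value as a percent of the mesenchymal value (horizontal log axis), 1 point per probe set for the 26 probe sets of the family and 1 point per gene for marker lists of mesenchymal cell types, with a bar at each median. Most probe sets of the family lie to the right of the medians of the smooth muscle, fibroblast and endothelial lists.

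For each member called by its brightest probe set, the gene with the most similar pattern was sought among 4246 called genes, by the root-mean-square difference of centred values over the 6 arrays. It was Klb for Epha1 (0.058), a co-receptor of fibroblast growth factors that read 9.5, 9.9 and 9.8 in epithelium A, B and C, against 8.0, 7.3 and 8.1 in mesenchyme A, B and C. It was Trim35 for Epha7 (0.069), Sting1 for Ephb3 (0.037), Clasp1 for Ephb4 (0.050), Syt9 for Efna5 (0.069) and Nsd2 for Efnb2 (0.075). These distances are smaller than the step of 0.1 to which the values were rounded.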

How the data were processed

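Gene expression of 3 epithelial and 3 mesenchymal pools was measured on Affymetrix Mouse Genome 430 2.0 arrays. Per the submitters' processing notes, the authors used RMA to make the deposited log2 values. No setting or version was given in the sources used here. Values are rounded to 0.1 and range from 4.6 to 15.2, array medians differ, and no detection calls were used. Precision is limited by the number of arrays.

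Of 45101 probe sets, 64 controls were set aside. The platform annotation gave 1 symbol for 34945 of the others, several for 932 and none for 9160. Of the single symbols, 34741 were matched by gene ID to RefSeq (GRCm38.p6), whose symbol was used. A gene (18161 in all) was represented by its brightest probe set, and those with several symbols stood for no gene. Groups came from the labels.

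Tissues were compared with limma 3.58.1 (R 4.3.3; lmFit, eBayes), using the 6 arrays as deposited and no covariate, with the Benjamini-Hochberg adjustment over all probe sets, or over all genes for lists. There were 4 residual degrees of freedom, with 31.7 prior ones for probe sets (252.5 for genes), so standard errors are drawn towards a shared value. The fit was tested on simulated data. The members and lists were chosen with earlier results of these data known. Named were all probe sets of members, all measured other family genes, up to 4 called partners and Wnt targets per direction, the 2 called markers per cell type with the largest differences, and the most similar gene for each called member. Abl1, Rasa1, Cbl, Adam10, Lgr5, Axin2 and the uncalled markers of cell types were named after their values were seen. Spike-in centring without mesenchyme B was added after seeing the data. The alternatives were other scalings, a filter on dim probe sets (mean of at least 7 in a tissue), other eBayes options and call rules, the letter as a block, leaving out each array, and other probe set rules. Fold values from log2 means are understated near background.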

Additional observations from a re-analysis of the deposited data

How the results depend on the processing

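The 11 calls among the 26 probe sets kept their direction under every alternative run, and all 11 were kept without each array in turn (11 to 12 calls), with the filter on dim probe sets, with a trended robust prior and with spike-in centring, which added 5 calls. With a replicate block for the letters A, B and C, 11 were called and no call of a member changed. Correlations of the deviations were -0.31, -0.15 and 0.12 for same-lettered arrays, and -0.25 to 0.36 for arrays of unlike letters. With so few arrays per tissue, these values cannot decide whether same-lettered pools are related. Of the 11, 9 were kept with quantile normalization, 10 with cyclic loess, 8 with equal medians and 7 with ribosomal centring (1 higher in the epithelium, 6 in the mesenchyme). The calls that ended were those of Efnb2 probe sets and, with ribosomal centring, Ephb4, and these 4 scalings raised the median difference of all probe sets. Without a minimum difference, 18 were called (2 in the epithelium, 16 in the mesenchyme) and 16887 over the whole array. With treat against a difference of 1, 6 were called (5 in the mesenchyme) and 4726 over the array, against 9671 in the main comparison. The calls that ended with treat were those of Ephb4 and of every probe set of Efnb2. Without each array, 9071 to 10764 were called over the array. The share of all calls that were higher in the mesenchyme was 72.1% in the deposited values, 56.8% with quantile normalization, 60.7% with cyclic loess, 54.5% with equal medians, 53.7% with ribosomal centring and 82.7% with spike-in centring. Mesenchyme B had lower spike-in controls (9.80, the other arrays 10.6 to 10.8). Spike-in centring without mesenchyme B, chosen after seeing the data, gave 73.3% and kept all 11 calls, with no new one.

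The 2 calls among the other Eph receptors and ephrins came to 0 with quantile normalization, cyclic loess, equal medians, ribosomal centring or treat, to 3 with spike-in centring (Ephb1 -1.49, Efna2 -1.26 and Efnb3 -1.03), to 4 without a minimum difference, to 1 to 3 without each array and to 1 with spike-in centring without mesenchyme B. Of the partners, 11 were called, 19 without a minimum difference, 6 with treat, 9 with equal medians or ribosomal centring, 16 with spike-in centring and 9 to 12 without each array. Calls of members by their brightest probe set (6) were 6 without each array and 5 when all probe sets of a gene were averaged, with Efna5 at the threshold (-1.0). The gene-level calls of Ephb4 and Efnb2 ended with ribosomal centring (-0.98 and -0.95) and with treat. That of Efnb2 also ended with equal medians (-0.97). Signs turned only for uncalled probe sets near 0. Epha1 1432399_a_at came to 0.28 with quantile normalization, 0.23 with loess, 0.27 with equal medians and 0.28 with ribosomal centring, and to between -0.18 and 0.067 without each array. Epha1 1432400_at came to -0.13 with spike-in centring and to between -0.033 and 0.22 without each array. Epha4 1421928_at came to -0.23 with spike-in centring and to -0.15 to 0.15 without each array. Epha4 1456863_at came to 0.089 with quantile normalization, 0.087 with loess, 0.23 with equal medians and 0.25 with ribosomal centring, to -0.25 to 0.15 without each array, and to 0.18 with spike-in centring without mesenchyme B. Epha7 1452380_at came to 0.033 with equal medians and 0.050 with ribosomal centring. Efnb1 1451591_a_at came to -0.13 with spike-in centring. The cause was not tested. Signal near the bacterial controls limits 5 member probe sets in the epithelium and 2 in the mesenchyme.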
